A study of Mus musculus with 4 samples.

Results

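The 10 genes described here make up the core of the mammalian circadian clock and its nearest output: Clock, Arntl, Per1, Per2, Per3, Cry1, Cry2, Nr1d1, Nr1d2 and Dbp. They were chosen by name from 21938 protein-coding genes of the GENCODE vM21 annotation of GRCm38, and every peak in each gene or within 10 kb of its transcription start site (TSS) was collected. The data were 4 peak lists from mouse livers of 2 genotypes, wild type (WT) and Uhrf1hepKO (Uhrf1 fl/fl;Alb:Cre), in which Cre driven by the albumin promoter deletes Uhrf1, a factor needed to maintain DNA methylation, in hepatocytes. Whether other liver cells kept the gene was not measured. All came from male C57Bl/6 mice of 8 to 12 weeks on a normal diet, and the livers were collected between 9 am and noon, so the data hold 1 window of the day and no rhythm could be measured.

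Liver of each genotype was profiled by ATACseq, in which a transposase cuts accessible DNA, and by ChIPseq for the histone variant H2A.Z, in which nucleosomes released with micrococcal nuclease are pulled down with an antibody. There was 1 library per genotype and assay, and the labels do not say whether the ATACseq and H2A.Z libraries of a genotype came from the same animal. With 1 library each, no difference between genotypes has a replicate check and none was tested. The files list called peaks only: a gene without a peak is one where the caller made no call, which does not show that signal was absent.

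CLOCK and BMAL1, the product of Arntl, form a dimer that binds E-boxes and activates the Per, Cry, Nr1d and Dbp genes. PER and CRY proteins return to repress that dimer, which closes the main feedback loop. A further loop runs through NR1D1 and NR1D2 (REV-ERBα and REV-ERBβ), which compete with ROR proteins at ROR elements and repress Arntl, while DBP activates genes through D-boxes. In hepatocytes this clock times the expression of many metabolic genes. H2A.Z is commonly found in the nucleosomes that flank the accessible, nucleosome-poor stretch of active promoters.

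All but 1 of the 10 genes had an accessible promoter in each genotype. Of the H2A.Z summits called within 1 kb of their TSSs, all but 1 lay upstream. Within 500 bp of the TSS, 9 of 10 genes had a WT ATACseq peak against 25.3% of all protein-coding genes, and 9 of 10 had a Uhrf1hepKO ATACseq peak against 22.9%. The gene without one was Nr1d1 in WT and Clock in Uhrf1hepKO. For H2A.Z the count was 7 of 10 in each genotype, against 43.2% of all genes in WT and 41.9% in Uhrf1hepKO. The genes without an H2A.Z peak in that window were Per2, Nr1d1 and Dbp, in both genotypes. In the gene body or within 10 kb of the TSS, 9 of 10 genes had a peak in each list, against 39.2% of genes for WT ATACseq, 37.7% for Uhrf1hepKO ATACseq, 64.3% for WT H2A.Z and 62.4% for Uhrf1hepKO H2A.Z. With peaks under the median fold of their list left out, promoter peaks were at 4 of 10 genes for WT ATACseq (16.5% of all coding genes), 5 of 10 for Uhrf1hepKO ATACseq (15.4%), 4 of 10 for WT H2A.Z (36.8%) and 6 of 10 for Uhrf1hepKO H2A.Z (35.3%). Most of these promoters also hold more CpG dinucleotides than the median coding gene, and promoter peak calls moved with CpG number, as given with the sequence features.

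**Figure D1:**
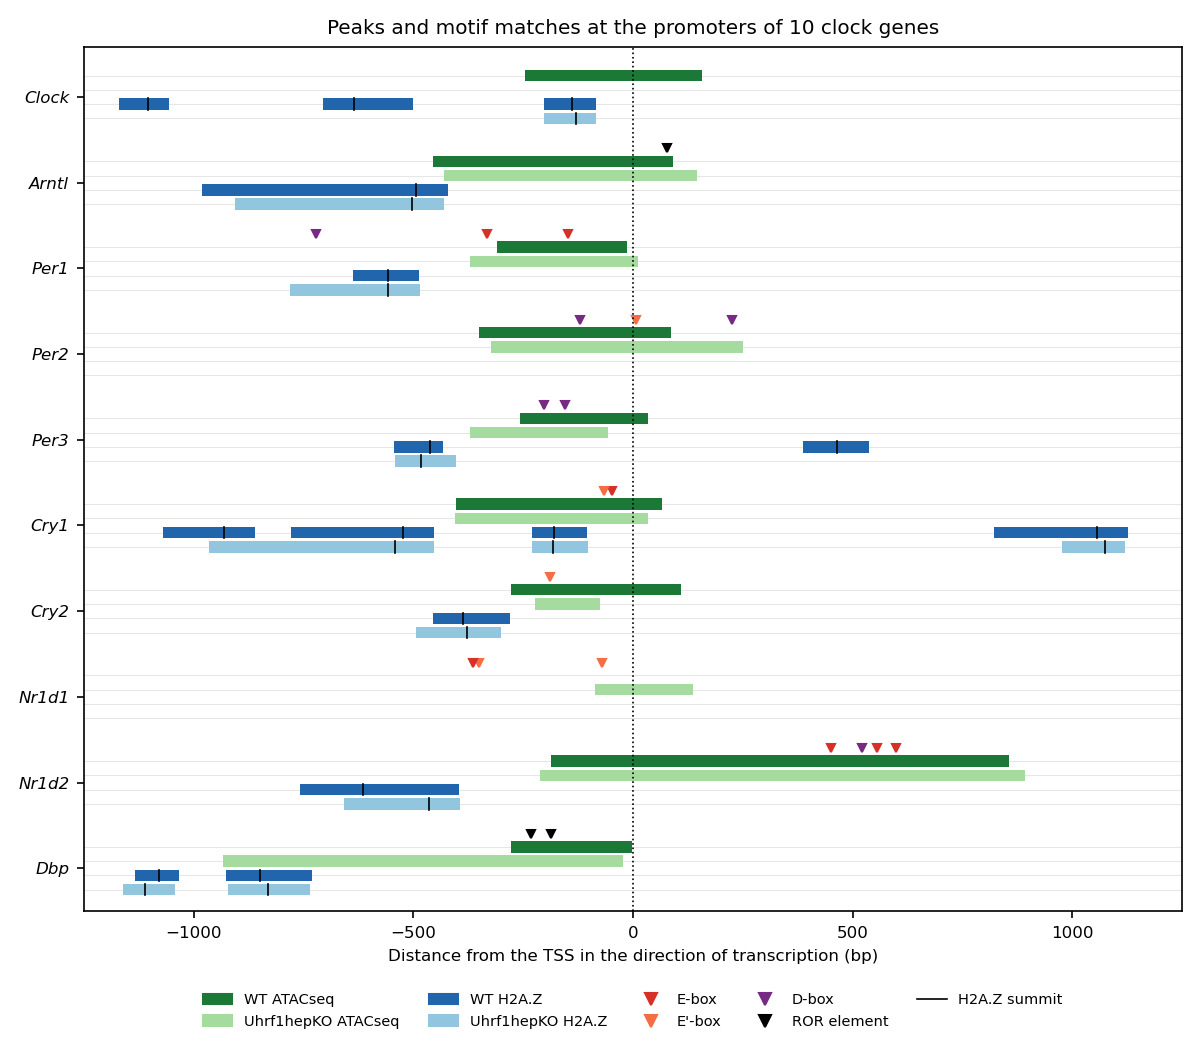
Peaks around the TSS of the 10 clock genes, drawn as bars from their first to their last base against distance from the TSS in bp (negative values are upstream). Each gene has 4 rows (WT ATACseq, Uhrf1hepKO ATACseq, WT H2A.Z, Uhrf1hepKO H2A.Z), black ticks are H2A.Z summits, and triangles mark motif matches within 500 bp of the TSS or under a peak. ATACseq bars sit over or just before the TSS, no H2A.Z bar covers it, and H2A.Z lies to the left of the TSS at all genes with H2A.Z in this range apart from the downstream peaks of Per3 in WT and of Cry1.

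Positions below are in bp from the TSS along the gene's own strand, with negative values upstream. Fold is the enrichment of a peak over the background estimated by the peak caller. It is an average over the peak for ATACseq and a value at the summit for H2A.Z. For H2A.Z the fold and its p-value together returned the whole number of reads piled up at the summit, and read numbers are given with it. The H2A.Z background was 3.1 reads at each of these WT peaks and 3.3 to 3.69 reads in Uhrf1hepKO, so read numbers of the 2 libraries were close in scale. With so little spread in background, H2A.Z fold mostly followed the read number and hardly corrected for local differences. In a tissue with several cell types, more cells with an open or H2A.Z-bearing site and more signal per cell cannot be told apart.

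Clock, which encodes the DNA-binding histone acetyltransferase partner of the activating dimer, lies on the minus strand of chromosome 5 (76209868 to 76304792, ENSMUSG00000029238). In WT an ATACseq peak of fold 3.68 covered the TSS from −246 to 158. No ATACseq peak was called in Uhrf1hepKO in the gene or its window, and the nearest one in that list was 120750 bp away and closest to the TSS of Tmem165. The WT peak was among the weaker of its list, at the 17.6th percentile of fold and a −log10 q of 1.45, where the lowest value in the list was 1.0. WT H2A.Z had 3 summits, at −138 (18 reads, fold 4.63), −636 (17 reads, fold 4.39) and −1104 (19 reads, fold 4.87). Only the first was called in Uhrf1hepKO, at −130 with 20 reads and fold 4.88. That pair had the same first and last base in both lists (chr5:76304876-76304994), as did 24 of 35999 matched H2A.Z pairs genome-wide. These upstream summits at −138 and −636 also lie inside the annotated gene Gm7467. Clock thus had 4 called peaks in WT and 1 in Uhrf1hepKO, and the accessible promoter was among those not called.

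Arntl encodes BMAL1, the other partner of the dimer, and lies on the plus strand of chromosome 7 (113207465 to 113314126, ENSMUSG00000055116). Its promoter was one of the most strongly called of the set in both genotypes: fold 6.88 from −455 to 92 in WT and fold 6.95 from −430 to 145 in Uhrf1hepKO. Among coding genes with a promoter ATACseq peak these stood at the 93.9th and 95.1st percentiles. An intronic peak about 53 kb into the gene was also called in both, at 53306 with fold 5.15 in WT and at 53309 with fold 5.35 in Uhrf1hepKO. A further exonic peak at 32538 (fold 4.13) was called in WT only. H2A.Z had a summit just beyond the upstream edge of the open promoter, at −494 with 28 reads in WT and −503 with 25 reads in Uhrf1hepKO, and another at the edge of the window, at −9987 with 27 reads and −10028 with 31 reads. The ROR element of Arntl, through which REV-ERB and ROR proteins are known to act on this gene, is shown because it lies under the promoter peak of both genotypes, in the first exon. Sequences here and below are from the RefSeq FASTA of GRCm38, read 5′ to 3′ on the gene's strand, with motif matches in capitals.

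Arntl ROR element, 63 to 92 bp (chr7:113207528-113207557, plus strand): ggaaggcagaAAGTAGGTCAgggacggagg

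Per1 encodes a PER repressor and is an early responder to signals that reset the clock (chromosome 11, plus strand, 69095217 to 69109960, ENSMUSG00000020893). Its promoter had the lowest ATACseq fold of the called promoters in the set, 3.19 from −310 to −13 in WT and 3.25 from −371 to 12 in Uhrf1hepKO. These stood at percentiles 0.307 and 0.636 of coding genes with a promoter peak, among the very lowest. Its H2A.Z was high by contrast. The summit fell at −557 in both libraries, with 34 reads in WT (95% Poisson interval 23.5 to 47.5, fold 8.53) and 38 reads in Uhrf1hepKO (26.9 to 52.2, fold 9.06), at the 70.5th and 74.0th percentiles of promoters with H2A.Z. Low ATACseq fold and above-median H2A.Z fold therefore stood at the same promoter, in both genotypes. About 7 kb upstream, WT had 1 peak (summit −7038, 34 reads) where Uhrf1hepKO had 2 (−7043 with 23 reads and −6847 with 25 reads), and these are nearest to the TSS of the neighboring gene Vamp2. An intronic ATACseq peak at 3655 (fold 3.40) was called in Uhrf1hepKO only. The stretch below holds the proximal E-boxes of Per1, bound by CLOCK and BMAL1: the one at −150 lay under the peak of both genotypes, and the one at −334 only under the longer Uhrf1hepKO peak.

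Per1 E-boxes, −354 to −125 bp (chr11:69094863-69095092, plus strand): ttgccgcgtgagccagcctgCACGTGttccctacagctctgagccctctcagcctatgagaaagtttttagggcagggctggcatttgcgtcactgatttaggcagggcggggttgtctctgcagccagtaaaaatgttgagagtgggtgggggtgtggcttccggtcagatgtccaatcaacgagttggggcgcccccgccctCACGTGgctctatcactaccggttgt

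Per2, a PER repressor whose loss shortens or abolishes rhythms in mice, lies on the minus strand of chromosome 1 (91415982 to 91459324, ENSMUSG00000055866). Its open promoter spanned −351 to 86 with fold 4.98 in WT and −323 to 251 with fold 4.01 in Uhrf1hepKO. No H2A.Z peak lay within 500 bp in either genotype, although 102 CpGs fall in that window, and 93.8% of coding genes have that many or fewer. The nearest summit upstream was at −4082 in WT (18 reads) and at −6476 in Uhrf1hepKO (20 reads). WT had further weak summits at −4378 and −4568 (14 reads each), and none of the 3 summits between −4082 and −4568 had a call in Uhrf1hepKO. The summit at −6474 in WT (18 reads) matched the one at −6476. Inside the gene, about midway between the TSS of Per2 and that of Hes6, an ATACseq peak was called in both genotypes. It was at 22503 in WT (fold 4.11) and at 22705 in Uhrf1hepKO (fold 3.60). An H2A.Z summit lay beside it in WT (22716, 22 reads) and inside it in Uhrf1hepKO (22696, 20 reads). A last intronic summit at 38533 (13 reads) was called in WT only. Per2 carries a non-canonical E′-box, CACGTT, next to its TSS and a D-box upstream. Both lay under the promoter peak of both genotypes and are shown for that reason, with a downstream D-box that only the longer Uhrf1hepKO peak reached.

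Per2 D-box, −145 to −98 bp (chr1:91459422-91459469, minus strand): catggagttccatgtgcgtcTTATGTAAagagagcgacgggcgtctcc
Per2 E′-box, −5 to 20 bp (chr1:91459304-91459329, minus strand): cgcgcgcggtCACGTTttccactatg
Per2 D-box, 202 to 249 bp (chr1:91459075-91459122, minus strand): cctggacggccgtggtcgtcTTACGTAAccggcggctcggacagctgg

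Per3 encodes the PER protein least needed for the rhythm itself and lies on the minus strand of chromosome 4 (151003652 to 151044665, ENSMUSG00000028957). Its ATACseq promoter peak had fold 3.63 from −257 to 34 in WT and fold 5.84 from −371 to −57 in Uhrf1hepKO. In rank among promoters with a peak this was the 5.77th percentile in WT and the 84.5th in Uhrf1hepKO, the widest gap in rank of the 8 genes with a promoter peak in both lists. The H2A.Z summit upstream also had more reads in Uhrf1hepKO, 26 at −482 (95% Poisson interval 17.0 to 38.1) against 18 at −462 in WT (10.7 to 28.4), and these intervals overlap. Per3 was the 1 gene of the set with H2A.Z summits within 1 kb on both sides of the TSS, through a weak exonic summit at 465 (14 reads, −log10 q 3.15) called in WT only. Its promoter lies inside the annotated span of Camta1. The 2 D-boxes of Per3, both under the promoter peaks of both genotypes, have the same 8 letters.

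Per3 D-boxes, −225 to −131 bp (chr4:151044796-151044890, minus strand): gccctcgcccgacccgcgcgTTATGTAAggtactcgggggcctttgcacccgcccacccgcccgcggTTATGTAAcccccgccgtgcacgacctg

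Cry1, the CRY repressor with the later phase of expression, lies on the minus strand of chromosome 10 (85131700 to 85185064, ENSMUSG00000020038) and had the most peaks of the set, 17 of 80 over the 4 lists. Its promoter peak had fold 7.88 from −402 to 66 in WT, the highest ATACseq fold of the set, and fold 6.70 from −405 to 35 in Uhrf1hepKO. They stood at the 97.9th and 93.4th percentiles of promoters with a peak. H2A.Z formed an array in each genotype of 7 peaks, which covered 2226 bp in WT and 2071 bp in Uhrf1hepKO, the largest of any member. Its highest summit lay just outside the open promoter, at −524 with 44 reads in WT (95% Poisson interval 32.0 to 59.1) and at −542 with 47 reads in Uhrf1hepKO (34.5 to 62.5). A narrower peak lay within the open promoter, at −179 with 28 reads and −182 with 27 reads.

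Downstream of the Cry1 TSS, the H2A.Z summits at 1056 and 1377 had 38 and 25 reads in WT, and their matches at 1074 and 1383 had 25 and 20 reads in Uhrf1hepKO. The first of these had the lowest Uhrf1hepKO over WT ratio of all matched H2A.Z peaks at the clock genes, 0.658 (95% interval 0.381 to 1.12), at the 1.09th percentile of matched pairs genome-wide, and its interval still holds 1. Farther upstream, Cry1 had summits at −931, −2360 and −5623 in WT (24, 22 and 18 reads), with −2384 and −5374 called in Uhrf1hepKO (26 and 21 reads). A summit at 8131 (20 reads) was called in Uhrf1hepKO only, and a WT ATACseq peak at −5188 (fold 3.69) in WT only. A pair of motifs, an E-box and an E′-box, the latter read on the other strand as AACGTG, lay under the promoter peak of both genotypes.

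Cry1 E′-box and E-box, −89 to −25 bp (chr10:85185089-85185153, minus strand): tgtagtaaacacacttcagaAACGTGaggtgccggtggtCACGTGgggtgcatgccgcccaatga

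Cry2 encodes the second CRY repressor (chromosome 2, minus strand, 92403646 to 92434043, ENSMUSG00000068742). Its promoter peak was wider in WT, −277 to 110 with fold 4.47, than in Uhrf1hepKO, −224 to −76 with fold 4.23, where it no longer reached the TSS. The H2A.Z summit before it had 16 reads at −388 in WT (95% Poisson interval 9.15 to 26.0) and 27 reads at −378 in Uhrf1hepKO (17.8 to 39.3), a ratio of 1.69 with a 95% interval of 0.877 to 3.35 that holds 1. About 4 kb upstream, a stronger H2A.Z summit stood at −3960 with 37 reads in WT and −3941 with 45 reads in Uhrf1hepKO, where a second peak at −3627 (17 reads) was split off. An ATACseq peak of fold 5.85 at −4115, next to that H2A.Z, was called in Uhrf1hepKO only. It was narrow, 111 bp, but at the 89.9th percentile of fold. Conversely an intronic WT peak at 10115 (fold 3.90) had no call in Uhrf1hepKO. That intronic peak covered 2 E-boxes, while the promoter peaks of both genotypes covered an E′-box.

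Cry2 E′-box, −212 to −167 bp (chr2:92434210-92434255, minus strand): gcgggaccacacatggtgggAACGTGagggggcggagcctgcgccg
Cry2 intronic E-boxes, 10098 to 10196 bp (chr2:92423847-92423945, minus strand): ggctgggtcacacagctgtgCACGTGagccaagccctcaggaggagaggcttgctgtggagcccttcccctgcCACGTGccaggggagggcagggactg

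Nr1d1, which encodes the nuclear receptor REV-ERBα that represses Arntl and is highly rhythmic in liver, was the exception of the set (chromosome 11, minus strand, 98767932 to 98775333, ENSMUSG00000020889). It had no peak in the WT ATACseq list and none in either H2A.Z list. The nearest peaks in these lists lay upstream, at 11360 bp for WT ATACseq, 10980 bp for WT H2A.Z and 10944 bp for Uhrf1hepKO H2A.Z, and all were nearest to the TSS of Msl1. In Uhrf1hepKO, ATACseq had a peak over the TSS, −86 to 137 with fold 3.44, and another at −8223 with fold 3.55. Both were weak: their −log10 q values were 1.48 and 1.64, where the lowest value in the list was 1.0. Nr1d1 also had the fewest CpGs of the set within 500 bp of its TSS, 32. The promoter nevertheless held an E-box and 2 E′-boxes. The pair at −367 and −354 lay under no peak of any list, and the E′-box at −72 and an E-box in the upstream site lay under Uhrf1hepKO peaks.

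Nr1d1 E-box and E′-box under no peak, −387 to −329 bp (chr11:98775662-98775720, minus strand): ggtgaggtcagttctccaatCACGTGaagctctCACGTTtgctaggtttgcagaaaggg
Nr1d1 E′-box, −92 to −47 bp (chr11:98775380-98775425, minus strand): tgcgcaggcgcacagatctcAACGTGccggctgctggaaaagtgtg
Nr1d1 upstream E-box, −8234 to −8189 bp (chr11:98783522-98783567, minus strand): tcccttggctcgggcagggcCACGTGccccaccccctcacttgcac

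Nr1d2 encodes REV-ERBβ, the close relative that shares this role (chromosome 14, minus strand, 18204054 to 18239127, ENSMUSG00000021775). Unlike the other promoters called in both genotypes, its open stretch lay mainly downstream of the TSS, and it was very wide: 1044 bp from −187 to 856 in WT (fold 3.82) and 1106 bp from −212 to 893 in Uhrf1hepKO (fold 3.75), at the 99.4th and 99.5th percentiles of width in their lists. It had 1 H2A.Z peak in each genotype, upstream, with its summit at −614 (25 reads, fold 6.34) in WT and −465 (30 reads, fold 7.20) in Uhrf1hepKO. The summit moved by 149 bp between the lists while the peak's edge nearest the TSS lay at −397 and −394. The open part of the first intron held 3 E-boxes and 1 D-box (read on the other strand as TTACATAA) within 194 bp, the most matches under any 1 peak of the set, and all lay under the peak of both genotypes.

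Nr1d2 intronic motifs, 429 to 622 bp (chr14:18238505-18238698, minus strand): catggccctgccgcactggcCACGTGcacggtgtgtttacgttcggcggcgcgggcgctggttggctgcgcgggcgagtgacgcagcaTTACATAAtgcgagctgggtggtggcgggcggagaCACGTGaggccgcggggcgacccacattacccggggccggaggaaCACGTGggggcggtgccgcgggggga

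Dbp, a PAR bZIP activator that carries the rhythm to output genes through D-boxes, is the shortest of the set (chromosome 7, plus strand, 45705088 to 45710203, ENSMUSG00000059824). Its WT ATACseq peak ran from −277 to −2 with fold 4.20. In Uhrf1hepKO the peak was 912 bp, from −933 to −22, with nearly the same fold, 4.14, and so it overlapped the H2A.Z peak at −830. H2A.Z summits upstream of the TSS had similar positions in both genotypes. They lay at −849 (35 reads) and −1079 (22 reads) in WT and at −830 (31 reads) and −1110 (20 reads) in Uhrf1hepKO. Both WT summits lay upstream of the open promoter, while the Uhrf1hepKO summit at −830 lay inside the longer ATACseq peak. A stronger summit farther away, at −4289 with 44 reads in WT and −4286 with 45 reads in Uhrf1hepKO, is nearest to the TSS of Car11, whose annotated span reaches over this region. A weaker one at −4000 (17 reads) was called in WT only. E-boxes known to drive Dbp lie in and near the gene, but no E-box letters fell under its peaks or within 500 bp of its TSS. The promoter peak held 2 ROR elements.

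Dbp ROR elements, −257 to −163 bp (chr7:45704831-45704925, plus strand): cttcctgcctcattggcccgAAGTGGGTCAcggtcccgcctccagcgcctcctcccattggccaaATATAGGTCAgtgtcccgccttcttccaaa

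**Figure D2:**
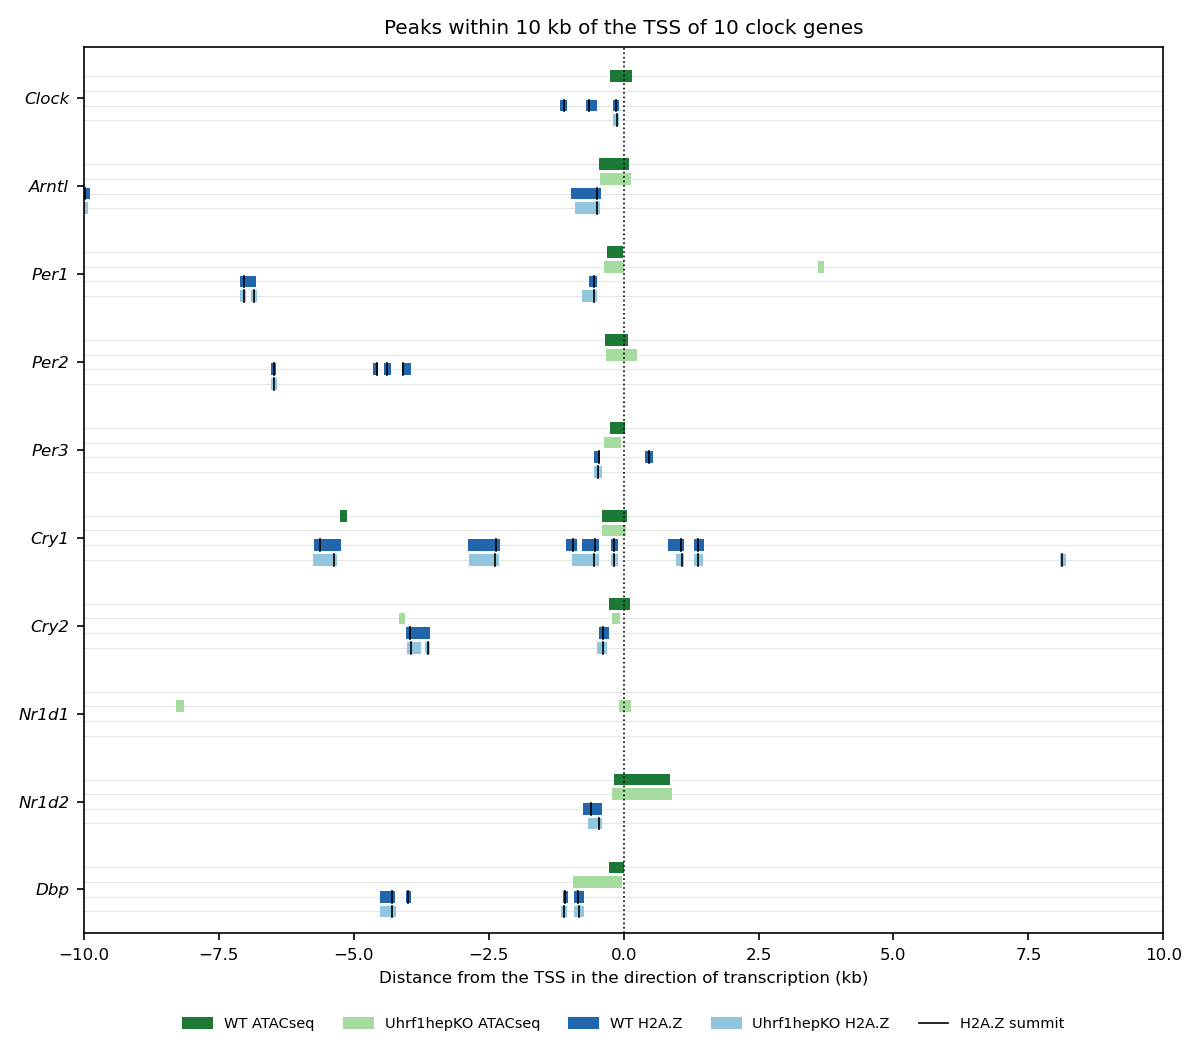
The same peaks over 10 kb on either side of each TSS, against distance in kb, with 4 rows per gene as above and black ticks for H2A.Z summits. Outside the promoters the lists share the H2A.Z about 4 kb upstream of Cry2 and Dbp, about 7 kb upstream of Per1 and along Cry1, while the 3 Per2 summits between −4568 and −4082 appear in WT alone and Nr1d1 has bars in the Uhrf1hepKO ATACseq row alone.

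Across the 10 genes, the ATACseq lists held 14 peaks each, with a median fold of 4.12 in WT and 4.08 in Uhrf1hepKO. H2A.Z had 29 peaks in WT, median fold 5.61, and 23 in Uhrf1hepKO, median fold 6.04. Of these ATACseq peaks 10 of 14 overlapped a peak of the other genotype in WT (71.4%, against 61.3% of all WT ATACseq peaks) and 10 of 14 in Uhrf1hepKO (71.4% against 60.3%). For H2A.Z it was 21 of 29 in WT (72.4% against 70.0%) and 22 of 23 in Uhrf1hepKO (95.7% against 75.6%). The unshared peaks were mostly weak. The median −log10 q of the clock genes' WT H2A.Z peaks was 11.5 for those shared and 4.15 for those called in WT only, and the same held over all WT H2A.Z peaks (9.78 and 5.15). For ATACseq the medians at the clock genes were 3.98 and 1.86 in WT and 4.1 and 1.92 in Uhrf1hepKO.

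**Figure D3:**
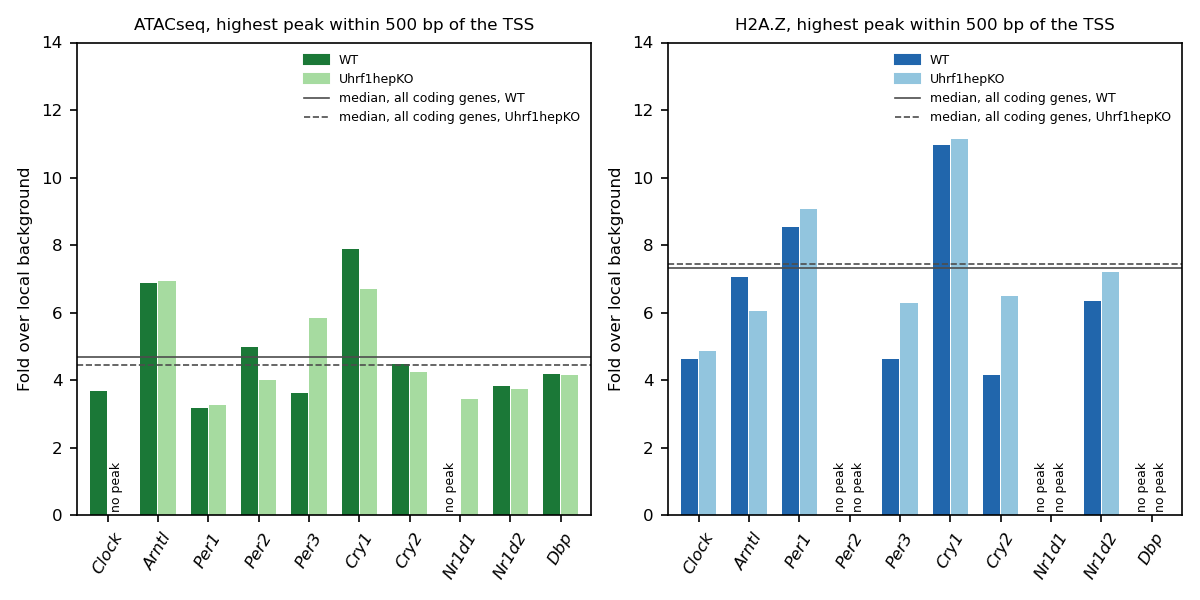
Fold over background of the highest peak within 500 bp of the TSS of each clock gene, for ATACseq (left) and H2A.Z (right). Dark bars are WT, light bars Uhrf1hepKO, lines are the medians over all coding genes with such a peak (ATACseq 4.70 in WT and 4.45 in Uhrf1hepKO, H2A.Z 7.31 and 7.44), and there is 1 library per bar. Arntl and Cry1 stand above the ATACseq lines in both genotypes, and Cry1 and Per1 above the H2A.Z lines.

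H2A.Z at the clock genes was one-sided. Within 1 kb of the TSS, 11 of 12 WT summits and 9 of 9 Uhrf1hepKO summits lay upstream, while 53.2% and 54.3% of all summits within 1 kb of coding genes did. By gene, 7 of 10 in WT had summits upstream and none downstream, against 15.0% of all coding genes, and 8 of 10 in Uhrf1hepKO, against 15.5%. Summits on both sides, the arrangement of 22.8% of coding genes in WT and 20.9% in Uhrf1hepKO, were seen at 1 clock gene in WT (Per3) and at 0 in Uhrf1hepKO. Among only those genes with a summit on at least 1 side, the upstream-only share was 32.8% in WT and 35.1% in Uhrf1hepKO, and the clock genes had 7 of 8 and 8 of 8. Restricted further to genes with an open promoter in the ATACseq list of the same genotype, it was 29.9% and 32.8%, with the clock genes at 7 of 8 and 7 of 7. Cry1 counts as upstream-only in this window since its downstream summits lie just past 1 kb. The upstream summits of Clock, Per3 and Dbp in this window also lie inside the annotated spans of Gm7467, Camta1 and Car11. The part of those genes in the one-sided pattern was not tested. The distance from the upstream edge of the open promoter to the next H2A.Z summit outside it was 39 bp at Arntl, 111 bp at Cry2, 122 bp at Cry1, 205 bp at Per3, 247 bp at Per1, 390 bp at Clock, 427 bp at Nr1d2 and 572 bp at Dbp in WT. At Clock and Cry1 a nearer WT summit lay inside the open promoter, at −138 and −179. Per2, at 3731 bp, stood apart. No H2A.Z peak of either genotype covered the TSS of any of the 10 genes, while ATACseq peaks covered it at 7 genes in WT and 6 in Uhrf1hepKO. The share of all coding genes whose TSS is covered was not counted, so these counts are a description with no background.

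For H2A.Z the reads at matched summits allowed a comparison within counting error. There were 21 matched pairs at 9 genes, of which 13 had more reads in Uhrf1hepKO and 8 fewer. Their median log2 ratio of Uhrf1hepKO over WT was 0.15, with a range of −0.60 to 0.97, beside a median of 0.11 over all 35999 matched pairs, of which the central 95% lay between −0.49 and 0.79. The 95% interval of the ratio held 1 for 20 of 21 pairs. The exception, at Cry1, pairs the WT summit at −931 (24 reads) with the Uhrf1hepKO summit at −542 (47 reads), because a single wider Uhrf1hepKO peak spans both of the WT peaks at −931 and −524. Its ratio of 1.96 (95% interval 1.17 to 3.35) therefore compares different positions, 389 bp apart. The distance between matched summits was 18 bp at the median for the clock genes and also over all pairs. Apart from that pair, no matched pair had an interval that excluded 1 at this depth. The clock genes' H2A.Z peaks called in 1 genotype only, 8 in WT and 1 in Uhrf1hepKO, had no pair and were not compared. The interval of 0.558 to 2.23 around the ratio of 1.11 at Clock shows how large a change could go unseen at 18 and 20 reads.

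**Figure D4:**
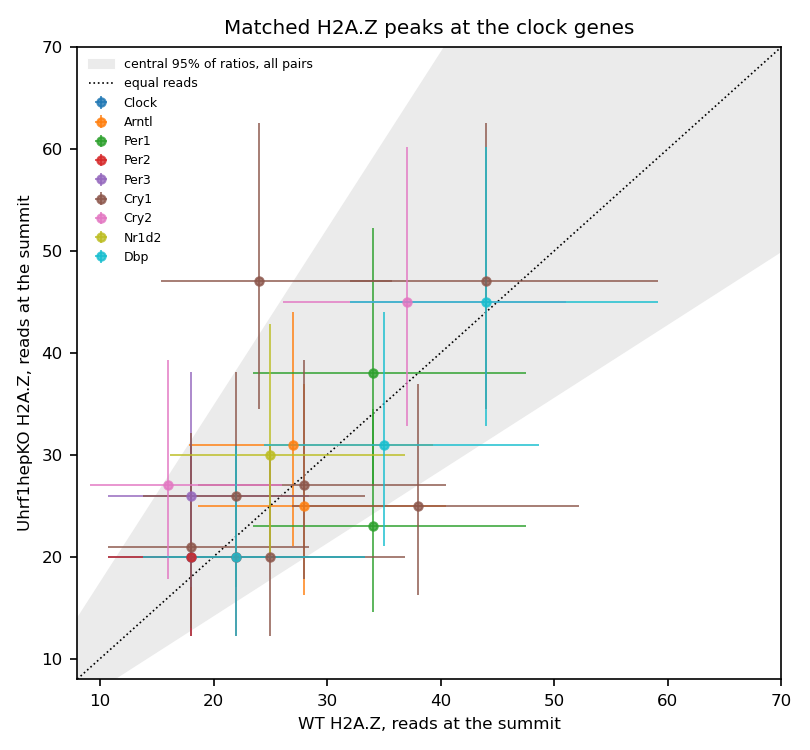
Reads at the H2A.Z summit in WT (horizontal axis) and Uhrf1hepKO (vertical axis) for the 21 matched peaks at clock genes, with 95% Poisson intervals, 1 library per genotype. The dotted line is equal reads and the gray band the central 95% of ratios over all 35999 matched pairs. One Cry1 pair, with 24 and 47 reads, lies above the band, a Cry1 pair with 38 and 25 and a Per1 pair with 34 and 23 lie below it, and the rest are inside.

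The clock promoters differed among themselves in base composition, which the choice of genes did not use. Within 500 bp of the TSS they held a median of 86.5 CpGs and 65.7% G and C, against 41.0 CpGs and 54.7% over all coding genes. Cry1 had 134 CpGs, Clock 123, Per2 102, Arntl 100, Per3 90, Cry2 and Nr1d2 83 each, Dbp 52, Per1 47 and Nr1d1 32. Nr1d1 was thus below the median of all coding genes, and Per1 and Dbp were near it, with 54.8%, 55.4% and 55.5% G and C. CpG number moves with peak calls: among the 12336 coding genes with at least 32 CpGs in that window, 42.2% had a WT ATACseq peak there, 38.2% a Uhrf1hepKO ATACseq peak, 67.3% a WT H2A.Z peak and 65.3% a Uhrf1hepKO H2A.Z peak. Below 32 CpGs these shares were 3.56%, 3.31%, 12.4% and 11.8%. The 12336 genes are those at or above the lowest clock gene and are not matched to the clock genes in CpG number, and the part of CpG content in the clock genes' counts was not tested. Clock, with 123 CpGs, and Nr1d1, with 32, were the genes without an ATACseq promoter call in 1 genotype.

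Motif letters known from clock biology were counted on both strands. Some of them are known from these same genes, such as the E-boxes of Per1 and the ROR element of Arntl. A share above the background at these genes was thus likely from the choice of motifs, and these counts are a description only. E-boxes (CACGTG) lay within 500 bp of the TSS of 4 of 10 clock genes and of 17.1% of all coding genes, and E′-boxes (CACGTT) of 4 of 10 and 15.6%. D-boxes (TTATGTAA or TTACGTAA) lay at 2 of 10 and 2.8%, and ROR elements (an A, any 2 bases, then TAGGTCA or TGGGTCA) at 2 of 10 and 4.88%. The cyclic AMP response element TGACGTCA was at 0 of 10 and 3.32%. No matches of different motifs overlapped at these genes. Under the clock genes' WT ATACseq peaks there were 7 E-boxes at 4 genes, 3 E′-boxes at 3 genes, 4 D-boxes at 3 genes and 3 ROR elements at 2 genes. Under those of Uhrf1hepKO there were 7 E-boxes at 4 genes, 4 E′-boxes at 4 genes, 5 D-boxes at 3 genes and 3 ROR elements at 2 genes. Counted by peak, 4 of the 14 clock gene peaks of each genotype held an E-box (28.6%), against 10.7% of all ATACseq peaks in WT and 10.1% in Uhrf1hepKO. An E′-box was held by 3 of 14 in WT (21.4%, against 5.94%) and 4 of 14 in Uhrf1hepKO (28.6%, against 5.03%). D-boxes were held by 3 of 14 in each (21.4%, against 1.57% and 1.75%) and ROR elements by 2 of 14 in each (14.3%, against 1.53% and 1.52%). The clock gene peaks were also wider, with a median of 343 bp in WT and 359.5 bp in Uhrf1hepKO against 232 and 207 bp over all peaks, and the part of width and CpG content in these shares was not tested. Clock had no match to any of these motifs within 500 bp of its TSS or under a peak. A match is a run of letters, and no binding was measured.

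Further genes of the pathway give a comparison. Of 17 further clock regulators (nuclear receptors, kinases, ubiquitin ligases and the like), 6 had an ATACseq promoter peak in WT and 6 in Uhrf1hepKO (35.3% each), and 13 an H2A.Z promoter peak in each genotype (76.5%). The highest WT ATACseq folds among them were those of Csnk1d, a kinase that phosphorylates PER proteins (5.90), Btrc, a ubiquitin ligase subunit that targets PER proteins (5.57), and Tef, a PAR bZIP relative of DBP (5.25). In WT H2A.Z, Timeless had a fold of 13.6 and Btrc of 11.0. Their H2A.Z was less one-sided, with 4 genes upstream only and 8 on both sides in WT, and 7 and 5 in Uhrf1hepKO. Of 18 output genes, 6 in WT and 7 in Uhrf1hepKO had an ATACseq promoter peak (33.3% and 38.9%), and 9 and 7 had an H2A.Z one. Their H2A.Z summits within 1 kb were upstream only at 4 genes, on both sides at 2 and downstream only at 5 in WT. In Uhrf1hepKO these counts were 5, 1 and 2. Nampt, the rate-limiting enzyme of NAD salvage, was highest in WT in both assays (5.32 and 7.56). The cell cycle kinase gene Wee1 had an ATACseq fold of 5.29, and in H2A.Z Nampt was followed by Noct (5.36) and the triglyceride lipase gene Pnpla2 (5.12). In ATACseq the shares of both lists lay between the 9 of 10 of the clock genes and the background of all coding genes. In H2A.Z the regulators lay above the 7 of 10 of the clock genes, and the outputs lay above the background in WT and below it in Uhrf1hepKO. These differences were not tested.

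Some facts of the libraries bear on all of these values. After keeping the assembled chromosomes, the lists held 10582 (WT) and 10764 (Uhrf1hepKO) ATACseq peaks and 51450 and 47135 H2A.Z peaks. The total reads of the ATACseq libraries cannot be read from these files, and the median H2A.Z summit had 21 reads in WT and 23 in Uhrf1hepKO. Promoter peaks at hepatocyte marker genes were few: of 10, ATACseq had 1 in WT (Pck1) and 2 in Uhrf1hepKO (Alb and Pck1), and H2A.Z had 0 in both. Markers of Kupffer, endothelial, cholangiocyte and stellate cells had 0 promoter peaks in any list, so the peak lists hold little to check the tissue by. Uhrf1 had 1 peak in or near the gene in each list, and peaks cannot check its deletion.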

How the data were processed

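ATACseq and H2A.Z ChIPseq peak lists of WT and Uhrf1hepKO liver were analysed, 4 libraries in all, grouped by the titles GEO gives them. The authors used BWA-MEM for alignment to GRCm38.p4 and Picard for cleaning and sorting (and, for ChIPseq, removal of duplicates). They called peaks per library with MACS2, in broad mode with a stated p of 0.05 for ATACseq. The lowest −log10 q in the deposited lists was 1.0 for ATACseq in both genotypes, 1.3 for WT H2A.Z and 1.31 for Uhrf1hepKO H2A.Z. Whether the stated p or a q-value was the cutoff of these lists is therefore not settled. The mode of the H2A.Z calls, a control library and the MACS2 version are not given in the sources used here. The submitters' notes also name FastQC 0.11.5 and Trimmomatic. The ATACseq reads are described as single-end and their peak calls as made on paired-end alignments, while ChIPseq reads are described as single-end or paired-end. The deposited fold is a ratio over the peak caller's background, an average across the peak for ATACseq and a summit value for H2A.Z. The authors also deposited −log10 p-values and −log10 q-values, and the deposited summit is another value, in bp from the peak's start. No deposited value is scaled between libraries.

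GENCODE vM21 genes were joined to the peaks of chromosomes 1 to 19, X and Y. The software was matplotlib 3.10.9, scipy 1.17.1, pandas 2.3.3 and numpy 2.4.6 in Python 3.11.15. A peak belonged to a gene when it overlapped the gene or the 10 kb on either side of its TSS, taken as the 5′ end of the gene. Promoter windows were 500 bp on either side. The position of a peak is its summit for H2A.Z and its center for ATACseq. Overlaps needed 1 bp. H2A.Z summit reads were solved from fold and p-value to a tolerance of 0.001, which succeeded for all peaks, and the same steps were checked on simulated peaks (2000 of 2000 in each H2A.Z list recovered). The intervals printed are 95% and exact (Poisson for reads, conditional binomial for ratios) and cover counting error only. All 10 genes and all their 80 peaks were accounted for, and of the lists of further regulators and outputs the 3 genes with the highest WT promoter fold in each assay were named, except that some are not reported here, and other genes only where a peak lay nearer to their TSS, was next in line at a gene without peaks, or lay inside their annotated span. The genes, lists and windows were chosen with earlier results of these data known. Alternatives were a 250 bp window, removal of peaks under their list's median fold, a −log10 q of 2 or more, overlap of at least 50%, other transcripts' TSSs and other summit windows.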

Additional observations from a re-analysis of the deposited data

How the results depend on the processing

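With 1 library per genotype and assay, no library could be left out. No paired analysis was possible because the result comes from no test and each group has 1 sample. Of 116 alternative values of 23 results, 98 stayed within 1.5 times or the counting interval of the value above and 18 moved, 11 of the 116 being alternatives chosen after seeing the data. Most of the moves came when peaks under their own list's median fold were left out. Clock genes with a peak in the gene or within 10 kb then numbered 4 for WT ATACseq and 5 for Uhrf1hepKO ATACseq, and their peaks 5 (WT ATACseq), 7 (Uhrf1hepKO ATACseq), 16 (WT H2A.Z) and 15 (Uhrf1hepKO H2A.Z). Promoter peaks within 500 bp remained at 4 genes for WT ATACseq, 5 for Uhrf1hepKO ATACseq and 4 for WT H2A.Z. Genes with H2A.Z on both sides fell to 0 in WT, and genes with an E-box under an ATACseq peak to 1 in each genotype. With a −log10 q of 2 or more, E-boxes were under peaks at 2 genes in Uhrf1hepKO. With a window of 250 bp, H2A.Z peaks were at 2 genes in each genotype, and with summits within 500 bp the upstream-only count was 4 in WT and 5 in Uhrf1hepKO. Whether the upstream-only count still differs from all coding genes at 500 bp is not known, since that share was not counted. When both peaks had to overlap by 50%, 78.3% of the Uhrf1hepKO H2A.Z peaks were shared. The median log2 ratio of matched H2A.Z ranged from 0.05 to 0.15 over its alternatives. Depth limits H2A.Z ratios to the intervals given. The depth of ATACseq is unknown, so no interval could be given, and a missing call in 1 list cannot be told apart from a peak just under the threshold.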
